A study of Homo sapiens with 12 samples.

Results

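The response of U251P cells to carmofur was followed in 6 RNA-sequencing libraries, 3 from cells given carmofur and 3 from cells given the vehicle DMSO, out of 12 libraries in the series. U251 is an established human glioblastoma line, and U251P is the name the labels give these cells. Both groups were grown with 10% FBS, B27 equivalent, epidermal growth factor and basic fibroblast growth factor. The methods of the study describe its 10% FBS medium without a B27 equivalent and without these growth factors. The cells of both groups were serum-starved for 16 h and then kept in full medium with carmofur or DMSO for 24 h. The labels give no dose, the methods of the study give 5 µM, and the methods also place carmofur in the starvation period whereas the labels do not. The libraries are called vehicle 1 to 3 and carmofur 1 to 3 after their labeled replicate numbers. The methods of the study describe its experiments in general as done in biological triplicate with technical repeats. The labels do not say whether these replicates were separate cultures, so p-values measure the spread between these libraries, part of which may be technical. The other 6 libraries, from cells labeled U251T, were not used here.

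Carmofur is a fluorouracil derivative that inhibits acid ceramidase, the lysosomal enzyme, encoded by ASAH1, that splits ceramide into sphingosine and a fatty acid. Ceramide and sphingosine-1-phosphate act in opposite ways on cell survival and movement, and the experiment asked which transcripts differ when carmofur is added to cells whose migration is under study. Cultured cells also adjust many transcripts to the supply of nutrients and oxygen. When amino acids run short or the endoplasmic reticulum is stressed, translation of the transcription factor ATF4 rises and ATF4 raises genes for amino acid synthesis, amino acid transport and tRNA charging, and low oxygen acts in a comparable way through the HIF factors.

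Total counts per library ranged from 3295045 in vehicle 2 to 6350873 in carmofur 1, and 24349 of the 60107 gene identifiers had a count in at least 1 of the 6 libraries. The libraries were made to read the 3′ ends of transcripts, and counts from such ends do not scale with transcript length. CPM are counts divided by library size and scaled to a common total, adjusted here by the trimmed mean of M-values (TMM). They compare libraries, and give only a rough order between transcripts. Whether the reads of mitochondrial and noncoding RNAs came from 3′ ends was not tested. Of the 24349 genes with a count, 11426 had enough counts to be tested. Pairs of replicates differed by 4.85 to 11.8 times the chi-square that counting error alone would give per gene, so that no pair agreed within counting error.

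U251P cells carried most of the mesenchymal glioblastoma markers, part of the proneural, epithelial and neuronal markers, and little or no RNA of macrophage and endothelial markers. The intermediate filament gene VIM stood at 2885 CPM ± 305 (SD, n = 3) with vehicle, the neural progenitor filament NES at 406 ± 40.6, and the progenitor transcription factors SOX2 and SOX9 at 126 ± 31.0 and 132 ± 24.4. Of the 16 mesenchymal glioblastoma markers, 15 had a mean of at least 1 CPM. The hyaluronan receptor CD44 stood at 1004 CPM ± 61.9 and the annexin ANXA2 at 990 ± 30.3. CHI3L1, a further mesenchymal marker, had no count with vehicle. The mature astrocyte genes GFAP and AQP4 were at 0.0991 and 0 CPM, whereas the glutamate transporter SLC1A3 stood at 22.7 CPM ± 0.358. Of the 12 proneural glioblastoma markers, which summed to 297 to 315 CPM with vehicle and 302 to 330.3 CPM with carmofur, 5 had a mean of at least 1 CPM. These were the transcription factors SOX11 at 127 CPM ± 1.84 and SOX4 at 89.7 ± 7.5, the growth factor receptor PDGFRA at 54.3 ± 2.83, the adhesion molecule NCAM1 at 27.1 ± 7.60 and the Notch ligand DLL3 at 5.5 ± 0.398 with vehicle. Another 5, among them the oligodendrocyte lineage factors OLIG1, OLIG2 and SOX10, had no count in any of the 6 libraries.

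The summed level of the 12 macrophage and microglia markers was 1.94 to 2.52 CPM with vehicle and 1.48 to 3.84 CPM with carmofur, and 8 of them had no count at all. The 8 endothelial markers summed to 0.778 to 1.19 and 0.740 to 0.926 CPM, with 5 at 0. The epithelial markers summed to 306 to 324 CPM with vehicle and 291 to 348 CPM with carmofur and were split, since the keratin KRT18 stood at 158 CPM ± 2.56 and the tight junction protein CLDN4 at 100.1 ± 6.34 with vehicle, whereas EPCAM, CDH1, KRT5 and KRT14 were at or near 0. Neuronal markers, at 518 to 676 CPM with vehicle and 525 to 659 CPM with carmofur, were split in the same way, with the neurofilament NEFL at 531 CPM ± 90.0 and STMN2 and NEFM at 0. The summed levels of the 7 marker lists overlapped between carmofur and vehicle.

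The most abundant transcripts came from the mitochondrial genome. MT-RNR2 and MT-RNR1, the large and the small mitochondrial ribosomal RNA, stood at 95807 CPM ± 10233 and 55371 CPM ± 13438 (SD, n = 3) with vehicle. Of the 25 most abundant genes, 11 were mitochondrial, and all 25 together held 26% of the TMM-scaled counts. The mitochondrial genome took 19.5% to 23.9% of all counts in the vehicle libraries and 20.5% to 26.2% in the carmofur libraries, with the highest share in carmofur 2. The groups therefore overlapped in this share.

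Outside the mitochondrial genome, the nuclear long noncoding RNA MALAT1 led with 10361 CPM ± 2896. It was followed by the cytosolic chaperones HSP90AA1 with 6609 CPM ± 723 and HSP90AB1 with 4242 CPM ± 456, the poly(A)-binding protein PABPC1 with 3799 CPM ± 426, the ribosomal protein RPS6 with 3444 CPM ± 261 and the glycolytic enzyme GAPDH with 3347 CPM ± 358. The actin ACTG1, the nucleolar protein NCL, the calcium-binding protein S100A6, the chromatin-associated acidic protein PTMA and the glycolytic enzyme ENO1 stood between 2360 and 2774 CPM. Genes with many processed pseudogenes, such as those for ribosomal proteins, GAPDH, PABPC1 and PTMA, may have lost or gained reads in the authors' mapping. In all, 87 genes reached 1000 CPM with vehicle, 1706 reached 100 CPM and 8124 reached 10 CPM.

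This profile was nearly the same with carmofur. Of the 25 most abundant genes, 23 were also among the 25 most abundant in the carmofur libraries. In 3 of the 25 the groups did not overlap, beside 8.33% of all tested genes. MT-ND4, a subunit of respiratory complex I, was at 8097, 9390 and 10167 CPM with vehicle and at 11289, 12283 and 10169 CPM with carmofur, so that vehicle 3 and carmofur 3 were almost equal. MT-CYB, the mitochondrially encoded subunit of complex III, was at 2782, 2759 and 2797 CPM with vehicle and at 3191, 3551 and 2967 CPM with carmofur. The ribosomal protein RPL37A was lower with carmofur, at 2178 CPM ± 67.6 against 2403 CPM ± 99.9.

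**Figure D1:**
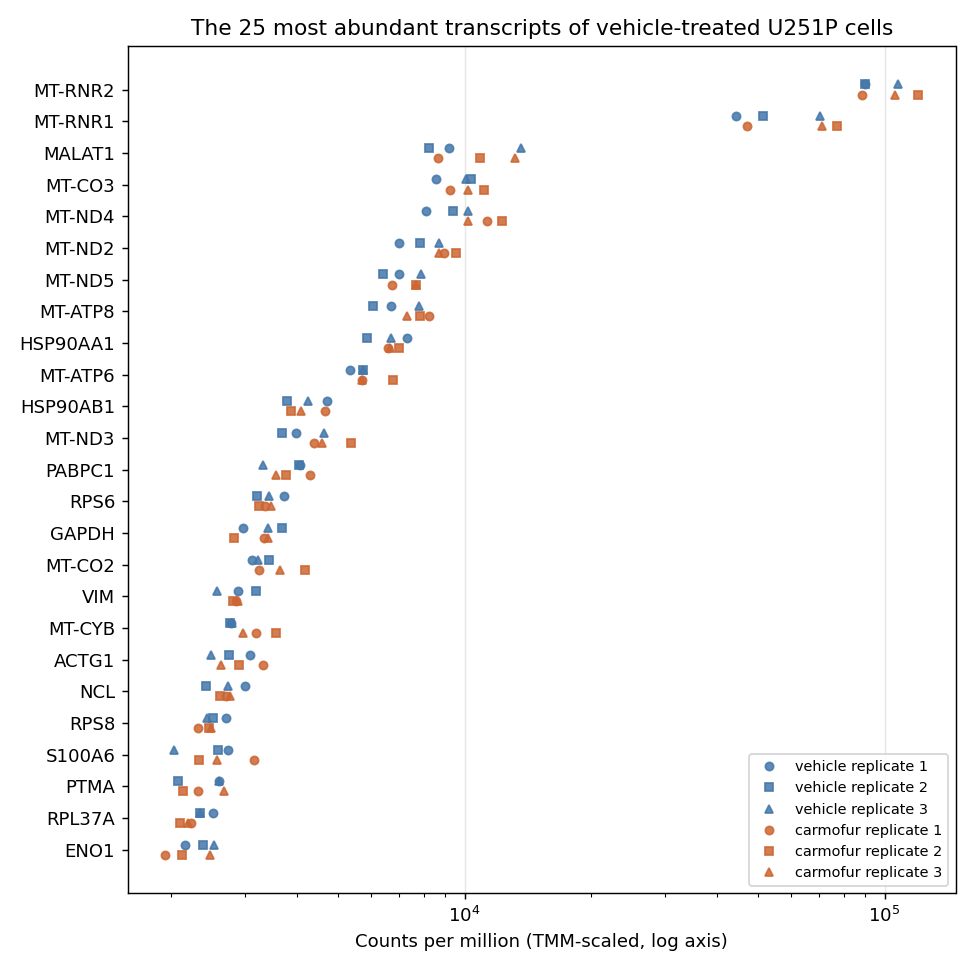
Level of the 25 genes of highest mean CPM in the vehicle libraries, in each of the 6 libraries. The horizontal axis is CPM on a log axis, blue symbols are vehicle and orange symbols carmofur, and the symbol shape is the replicate number. MT-RNR2 and MT-RNR1 lie apart from the other genes, and the symbols of the groups overlap except in MT-ND4, MT-CYB and RPL37A.

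No gene differed between carmofur and vehicle at an adjusted p-value under 0.05 by the quasi-likelihood F test of edgeR, adjusted by Benjamini-Hochberg over all tested genes (0 of 11426 genes, 0%), and the smallest adjusted p was 0.999. At an unadjusted p under 0.05, 220 genes (1.93%) were higher with carmofur and 182 (1.59%) lower, 402 in all. DESeq2 and limma voom also gave 0 genes at an adjusted p under 0.05, with 235 and 430 at an unadjusted p under 0.05. The 3 carmofur libraries lay entirely above the 3 vehicle libraries in 458 genes (4.01%) and entirely below them in 494 genes (4.32%). Without the filter on low counts the edgeR test called 19 genes, 16 of them lower. The main test took no account of replicate number. With the replicate number as a block, edgeR called 1 gene, DHRS3, and 692 genes had an unadjusted p under 0.05.

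The fitted differences were small. The median size of the log2 fold change over the 11426 genes was 0.12, and 94.5% of genes lay within 0.5 in either direction. Among the 3383 genes with a mean of at least 50 CPM, 99.6% lay within 0.5, and the extremes were DDIT4, an inhibitor of mTOR complex 1 signaling, at -1.03 and MCAM, a cell adhesion molecule of the immunoglobulin family, at 0.51. The median standard error of a log2 fold change was 0.18 over all tested genes and 0.11 among the genes of at least 50 CPM. ASAH1, which encodes the enzyme that carmofur inhibits, was at 40.7, 36.6 and 31.3 CPM with vehicle and at 45.4, 33.5 and 36.5 CPM with carmofur. These values overlapped, and the log2 fold change of ASAH1 was 0.09 (SE 0.16).

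Libraries of the same group differed from each other as much as libraries of different groups did. Over the genes of at least 50 CPM, the median absolute log2 difference between 2 libraries was 0.135 to 0.145 within vehicle, 0.140 to 0.142 within carmofur and 0.0872 to 0.159 between the groups. The libraries most alike were vehicle 3 and carmofur 3, followed by vehicle 1 and carmofur 1 at 0.113, and in neither of these pairs did any of these genes differ by more than 2-fold. The difference between the groups made up 18.5% of the total variance of log2 CPM over tested genes. The group term takes 20% of the degrees of freedom among 6 libraries. The common biological coefficient of variation, edgeR's estimate of the relative spread between replicates beyond counting error, was 0.124.

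**Figure D2:**
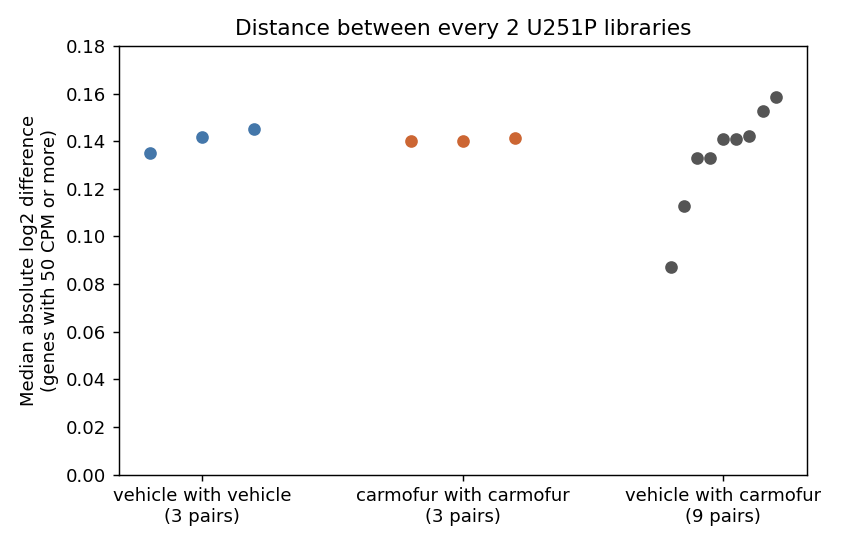
Median absolute log2 difference between each 2 of the 6 libraries over genes with at least 50 CPM, for the 3 pairs within vehicle, the 3 pairs within carmofur and the 9 pairs across the groups. Each point is a pair, and the range across the groups, 0.0872 to 0.159, encloses the values within them.

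The genes that varied most between libraries of the same group were mostly genes of the ATF4 and hypoxia lists. Of the 12 genes of at least 50 CPM with the largest residual SD of log2 CPM around the group means, 6 were on the list of ATF4 targets, namely DDIT4, SESN2, GDF15, STC2, ASNS and ATF4 itself, and VEGFA was on the hypoxia list. The residual SD was 1.52 for DDIT4, 1.16 for SESN2 and 1.08 for GDF15, against a median of 0.13 over genes of that abundance. DDIT4 was at 68.8, 473 and 316 CPM in vehicle 1 to 3 and at 51.9, 47.3 and 328 CPM in carmofur 1 to 3. Vehicle 1, carmofur 1 and carmofur 2 were low and vehicle 2, vehicle 3 and carmofur 3 were high, so that each group held libraries of both kinds.

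SESN2, a leucine sensor that restrains mTOR complex 1, had the same 3 libraries low and the same 3 high. It was at 25.2, 122 and 93.3 CPM with vehicle and at 23.8, 21.1 and 85.6 CPM with carmofur. GDF15, a secreted stress cytokine, was at 48.8, 122 and 141 CPM with vehicle and at 40.6, 20.8 and 122 CPM with carmofur. VEGFA, the endothelial growth factor induced by low oxygen, was at 96.9, 300.4 and 221 CPM with vehicle and at 91.4, 93.2 and 229 CPM with carmofur. In each of these genes the same 3 libraries were low. ATF4 itself was at 241, 444 and 463 CPM with vehicle and at 224, 193 and 396 CPM with carmofur, with the same libraries low.

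The other members of this most variable group were the amino acid enzyme GPT2, the noncoding RNA NEAT1, the ephrin receptor EPHA2, the secreted glycoprotein STC1 and the protease PAPPA. NEAT1, which forms nuclear paraspeckles, was at 495, 274 and 1033 CPM with vehicle and at 604, 768 and 919 CPM with carmofur, an order of libraries unlike that of DDIT4. EPHA2 was at 95.0, 129 and 53.7 CPM with vehicle and at 174, 100.2 and 67.1 CPM with carmofur. The log2 fold changes of NEAT1, EPHA2, STC1 and PAPPA changed sign when single libraries were left out.

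Pathways were compared as 36 lists, each by the log2 fold changes of its tested members beside the median over all tested genes, which was -0.0008. A list was called consistent where its median, less that of all genes, kept its sign with each of the 6 libraries left out in turn. By that rule 6 lists were higher with carmofur, 11 were lower and 19 had no consistent direction, and no list had a member at an adjusted p under 0.05. Members of a list can rise and fall together across libraries, so counts of members are not counts of separate observations. The largest medians belonged to the ATF4 targets, the hypoxia response and serine and one-carbon metabolism on the lower side, and to NF-kB and inflammatory mediators, mitochondrial mRNAs and SRF and MRTF targets on the higher side. In 4 of the 36 lists the mean log2 level of the members did not overlap between the groups. Among all tested genes the groups did not overlap in 8.33%, so this count of lists is only a description. The 4 lists were the cytosolic aminoacyl-tRNA synthetases and sterol biosynthesis, which were lower, and integrins and focal adhesion and the NF-kB list, which were higher.

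**Figure D3:**
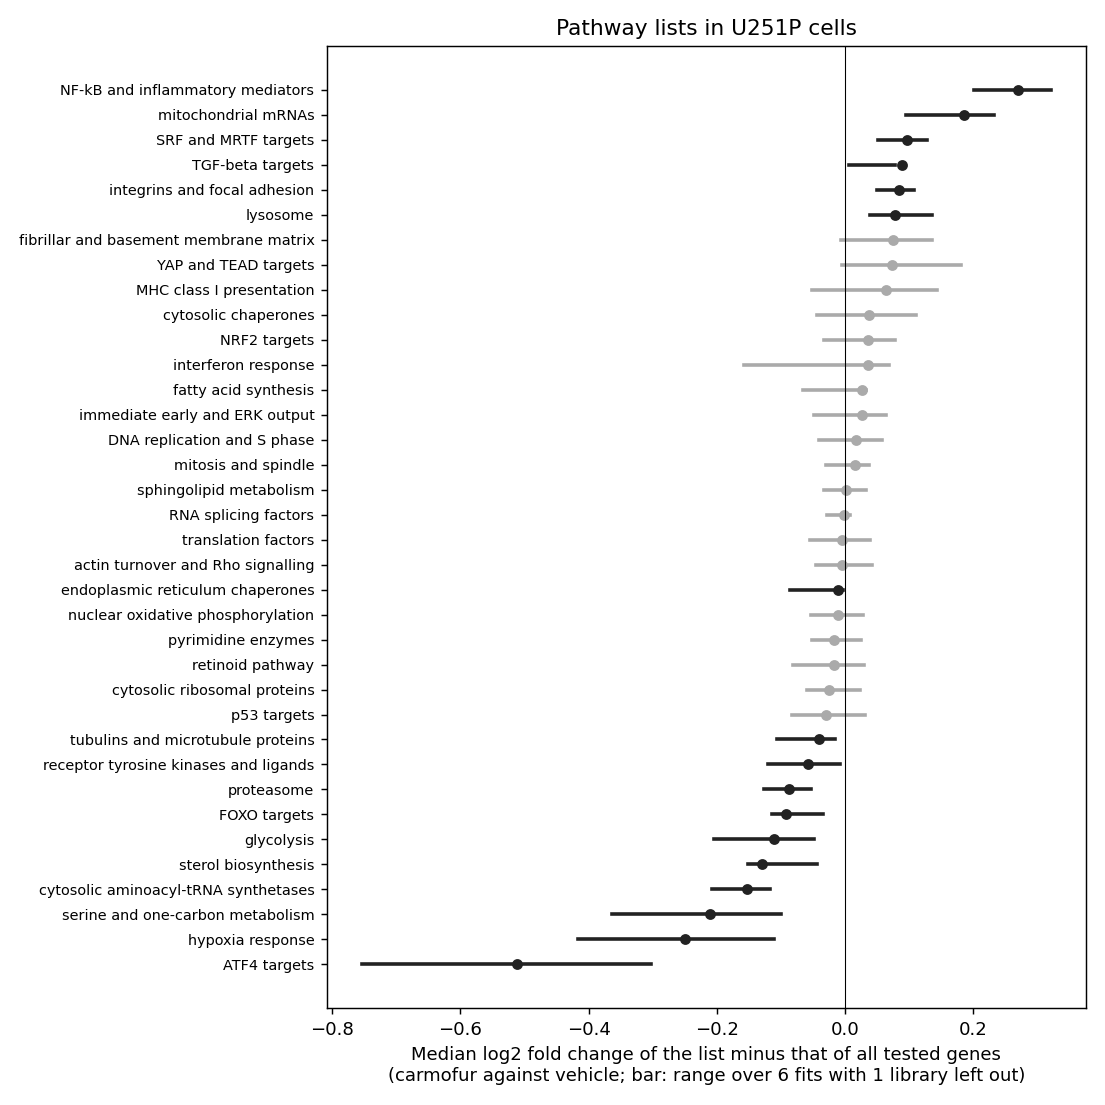
Median log2 fold change of 36 lists, carmofur against vehicle, less the median of all tested genes. Each point is a list, the bar is the range over the 6 fits with a library left out, and black marks the 6 higher and 11 lower lists whose range stayed on a single side of 0. ATF4 targets lie lowest at -0.51 and NF-kB and inflammatory mediators highest at 0.27.

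ATF4 targets had the largest shift. All 24 tested members had a lower fitted level with carmofur, with a median log2 fold change of -0.51. Of the 24, 10 had an unadjusted p under 0.05 beside 1.59% of all genes, and in 2 the groups did not overlap beside 4.32% of all genes. DDIT4, SESN2, GDF15 and ATF4 were low together in vehicle 1, carmofur 1 and carmofur 2, so the 24 are not separate observations. The members also varied far more between libraries than other genes did, with a median residual SD of 0.54 against 0.21 over all tested genes. Relative to the vehicle mean, the mean log2 level of the members was -0.57, 0.42 and 0.14 in vehicle 1 to 3 and -0.69, -1.22 and 0.02 in carmofur 1 to 3. The groups overlapped, since vehicle 1 was close to carmofur 1, and carmofur 3 was close to vehicle 3 and lay between vehicle 2 and vehicle 1. By replicate number the groups lay far apart only at number 2, at 0.42 with vehicle and -1.22 with carmofur. The list median was -0.30 without carmofur 2, with 23 of 24 members lower, and -0.75 without carmofur 3. Without vehicle 2 and without vehicle 3, 21 and 22 of the 24 were lower.

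The members named by their p-values were 3 enzymes or transporters, 2 regulators and a secreted hormone. PCK2, the mitochondrial phosphoenolpyruvate carboxykinase, was at 18.8, 36.8 and 24.3 CPM with vehicle and at 11.4, 5.24 and 23.2 CPM with carmofur, a log2 fold change of -1.04 (SE 0.36). TRIB3, a pseudokinase that feeds back on ATF4, was at 29.5, 82.9 and 43.9 CPM with vehicle and at 19.4, 12.4 and 45.1 CPM with carmofur, and its log2 fold change was also -1.04 (SE 0.38). In both genes carmofur 2 was the lowest of the 6 libraries and carmofur 3 lay within the vehicle range.

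JDP2, a basic leucine zipper repressor, was at 6.20, 12.5 and 13.8 CPM with vehicle and at 3.24, 1.22 and 9.62 CPM with carmofur, and its value in carmofur 2 rests on 7 counts. STC2, a secreted glycoprotein hormone, was at 57.7, 171 and 136 CPM with vehicle and at 53.9, 29.8 and 116 CPM with carmofur. SLC3A2, the heavy chain shared by several amino acid exchangers, was at 218, 238 and 242 CPM with vehicle and at 205, 157 and 209 CPM with carmofur. SLC3A2 and the asparaginyl-tRNA synthetase NARS1 were the 2 members without overlap, and their log2 fold changes, -0.29 (SE 0.12) and -0.37 (SE 0.11), were smaller than the list's median. The cystine transporter SLC7A11 and the cationic amino acid transporter SLC7A1, with log2 fold changes of -0.10 and -0.09, were the abundant members nearest to 0.

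**Figure D4:**
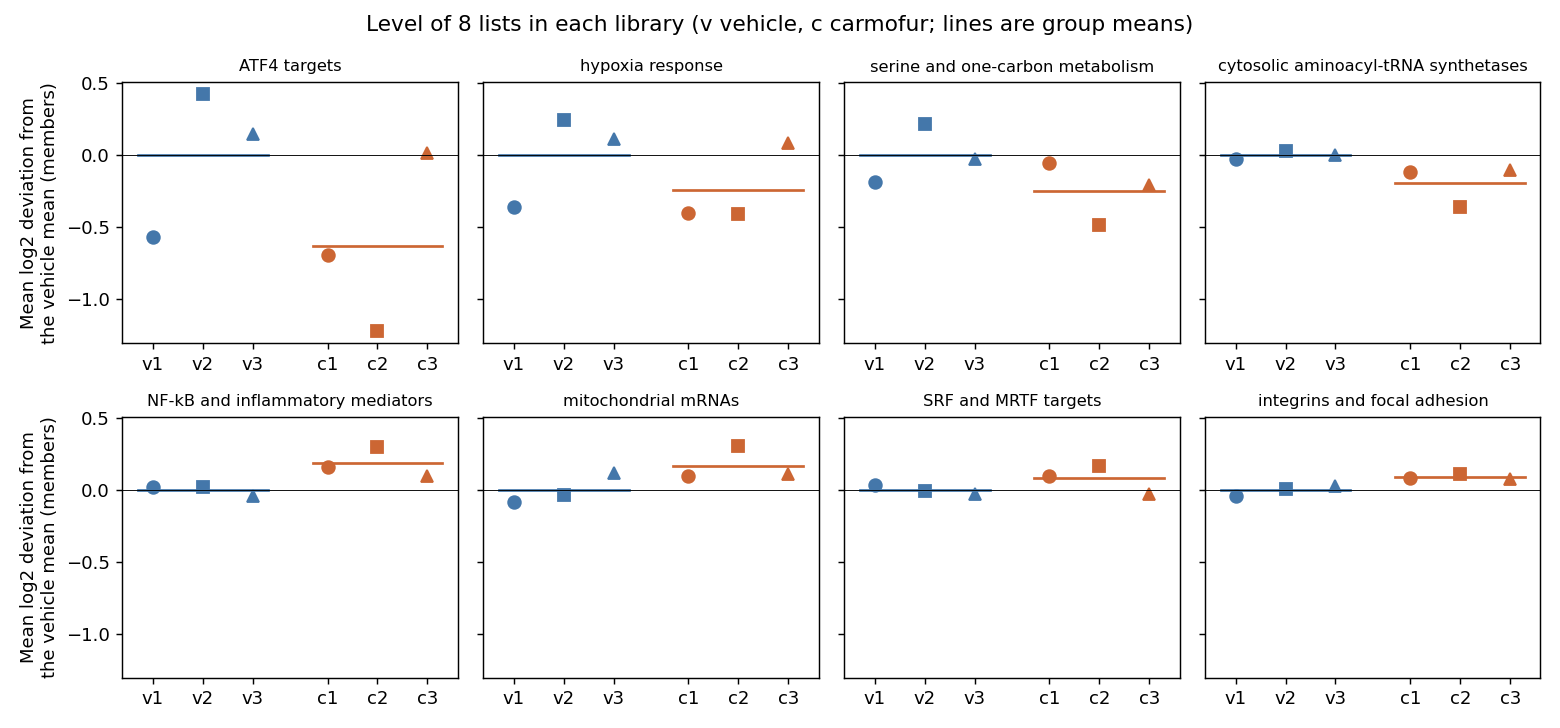
Mean log2 deviation of the members of 8 lists from their vehicle mean in each library (v1 to v3 vehicle, c1 to c3 carmofur), with a line at each group mean. The ATF4 and hypoxia lists were low in v1, c1 and c2 and high in v2, v3 and c3, whereas the 3 carmofur libraries of the synthetase list lay below, and those of the NF-kB and focal adhesion lists above, the 3 vehicle libraries.

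Charging enzymes for tRNA showed a smaller shift with less spread than in the ATF4 list. Of 23 cytosolic aminoacyl-tRNA synthetases, which attach amino acids to their tRNAs, 20 were lower with carmofur, with a median log2 fold change of -0.15. Of these, 9 had an unadjusted p under 0.05 beside 1.59% of all genes, and 4 did not overlap beside 4.32%. Their residual SD had a median of 0.17, against 0.21 over all tested genes and 0.13 over genes of at least 50 CPM. Relative to the vehicle mean the list stood at -0.02, 0.03 and 0.00 in the vehicle libraries and at -0.12, -0.36 and -0.11 in the carmofur libraries. All carmofur libraries were below all vehicle libraries, and carmofur 2 was the lowest. Without vehicle 1 the number of lower members was 15 of 23.

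EPRS1, the glutamyl-prolyl synthetase, was at 407, 442 and 388 CPM with vehicle and at 333, 291 and 350.3 CPM with carmofur, a log2 fold change of -0.34 (SE 0.10). NARS1 was at 209, 231 and 218 CPM with vehicle and at 184, 141 and 185 CPM with carmofur. TARS1, the threonyl synthetase, was at 654, 711 and 631 CPM with vehicle and at 583, 470.1 and 616 CPM with carmofur. In these 3 genes, named with their values known, the lowest vehicle library was above the highest carmofur library.

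ATF4 binds composite elements, and a form of their core, TGATGCAA, was searched. This core is shown here because it occurs in promoters of both lists. Other forms were not searched, so a gene without these letters may still hold an element. Promoter windows of 300 bases, 250 before and 50 after a start site, were taken from RefSeq (GRCh38.p14), and both strands were searched. The core was found in 1.08% of 27305 genes with a window and in 0.757% of the 8988 tested genes with one. It was found in 4 of 22 ATF4 targets (18.2%), in 6 of 19 synthetases (31.6%) and in 3 of 10 genes of serine and one-carbon metabolism (30%). NARS1 is counted in both the ATF4 and the synthetase list. Genes listed as ATF4 targets may hold the core because of how the list was chosen, so their share is only a description. The core was found in none of the 18 hypoxia, 12 NF-kB and 20 SRF and MRTF genes with a window. A match is a description of these letters and not evidence of binding. The 30 bases around the core, 5′ to 3′ on the strand of the gene with the core or its reverse complement in capitals, were as follows for genes of the ATF4 and synthetase lists.
CHAC1 (chr15:40953251-40953280, plus strand): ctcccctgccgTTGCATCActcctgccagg
CEBPG (chr19:33374060-33374089, plus strand): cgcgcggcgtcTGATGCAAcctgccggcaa
JDP2 (chr14:75427995-75428024, plus strand): atagccggggcTGATGCAAcccgtcccgcc
NARS1 (chr18:57621804-57621833, minus strand): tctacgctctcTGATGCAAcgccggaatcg
AARS1 (chr16:70289675-70289704, minus strand): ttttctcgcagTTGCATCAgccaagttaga
CARS1 (chr11:3057407-3057436, minus strand): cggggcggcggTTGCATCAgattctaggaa
IARS1 (chr9:92293692-92293721, minus strand): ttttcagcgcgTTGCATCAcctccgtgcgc
MARS1 (chr12:57488053-57488082, plus strand): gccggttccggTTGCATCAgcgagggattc
TARS1 (chr5:33440956-33440985, plus strand): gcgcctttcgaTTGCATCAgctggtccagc

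The 6 synthetases with the core were all lower with carmofur (median log2 fold change -0.35), and of the 13 without it 11 were lower, with a median of -0.07. This split is by these letters only, was made after the values were seen and was not tested. The alanyl synthetase AARS1 was at 184, 229 and 217 CPM with vehicle and at 152, 111 and 197 CPM with carmofur, and the cysteinyl synthetase CARS1 at 184, 262 and 268 CPM with vehicle and at 169.8, 125 and 229 CPM with carmofur. The methionyl synthetase MARS1 was at 128, 148 and 143 CPM with vehicle and at 114, 89.7 and 129 CPM with carmofur. In each of the 3 genes carmofur 3 lay within the vehicle range. In the ATF4 list the 4 genes with the core had a median of -0.62 and the 18 without it a median of -0.51, and all of them were lower.

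Serine and one-carbon metabolism was lower in 10 of 15 tested genes (median log2 fold change -0.21), and 4 genes had an unadjusted p under 0.05 beside 1.59% of all genes. All 4 belong to serine synthesis or the mitochondrial branch that takes carbon from serine. PHGDH, which opens serine synthesis, was at 125, 152 and 132 CPM with vehicle and at 104, 70.2 and 108 CPM with carmofur, without overlap and with a log2 fold change of -0.54 (SE 0.14). PSAT1, the next enzyme, was at 266, 339 and 245 CPM with vehicle and at 249, 121 and 209.9 CPM with carmofur, where carmofur 1 lay above vehicle 3.

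MTHFD2, the mitochondrial methylenetetrahydrofolate dehydrogenase, was at 255, 383 and 292 CPM with vehicle and at 263, 182 and 228 CPM with carmofur. SHMT2, the mitochondrial serine hydroxymethyltransferase, was at 138, 159 and 143 CPM with vehicle and at 138, 103 and 125 CPM with carmofur. The cytosolic and nucleotide-linked members differed less. The log2 fold change was 0.00 for MTHFD1, 0.06 for the thymidylate synthase TYMS and 0.20 for the cytosolic SHMT1. Carmofur 2 was the lowest library for PHGDH, PSAT1, MTHFD2 and SHMT2, and without it the list median was -0.10. It was -0.36 without carmofur 1.

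The hypoxia response was lower in 18 of 21 tested genes, with a median of -0.25, but none had an unadjusted p under 0.05, beside 1.59% of all genes, and 1 did not overlap, beside 4.32%. The mean log2 level of the members was -0.36, 0.25 and 0.11 in vehicle 1 to 3 and -0.40, -0.41 and 0.08 in carmofur 1 to 3, with the same 3 libraries low as for DDIT4. The groups overlapped, with vehicle 1 among the low libraries and carmofur 3 among the high ones. By replicate number they lay far apart only at number 2, at 0.25 with vehicle and -0.41 with carmofur. NDRG1, a differentiation-related gene induced by low oxygen, was at 33.5, 50.2 and 72.9 CPM with vehicle and at 33.0, 27.9 and 55.7 CPM with carmofur, a log2 fold change of -0.45 (SE 0.26), and VEGFA had a log2 fold change of -0.59 (SE 0.34). The list median was -0.11 without vehicle 2, -0.16 without vehicle 3, -0.39 without carmofur 3 and -0.42 without vehicle 1. Glycolysis, with 18 of 23 genes lower and a median of -0.11, had 0 genes at an unadjusted p under 0.05 by edgeR. Its median was -0.05 without vehicle 2, with 13 of 23 genes lower, and also -0.05 without carmofur 2, -0.07 without vehicle 3 or carmofur 1 and -0.21 without carmofur 3.

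Among the consistent lists of smaller shift, proteasome subunits were lower in 26 of 31 genes, with a median of -0.09, and 6 of them did not overlap beside 4.32% of all genes. Without vehicle 1 the median was -0.05. PSMD13, a subunit of the regulatory particle, was at 181, 158 and 179 CPM with vehicle and at 154, 138 and 139 CPM with carmofur, and PSMD2 of the same particle was at 611, 631 and 599 CPM with vehicle and at 557, 581 and 563 CPM with carmofur. Sterol biosynthesis was lower in 18 of 24 genes, with a median of -0.13, 1 gene at an unadjusted p under 0.05 beside 1.59% of all genes and 2 without overlap beside 4.32%. Without carmofur 2, its median was -0.04 and 13 of 24 genes were lower. PSMD13 and PSMD2 were picked as examples after their values were seen.

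On the higher side, the list of NF-kB and inflammatory mediators had 12 of 15 tested members higher with carmofur and a median of 0.27. Of these, 3 had an unadjusted p under 0.05 beside 1.93% of all genes and 2 did not overlap beside 4.01%. The list's mean level was 0.02, 0.02 and -0.04 in the vehicle libraries and 0.16, 0.30 and 0.09 in the carmofur libraries, without overlap. NFKB1, the p105 precursor of an NF-kB subunit, was at 36.0, 35.4 and 29.2 CPM with vehicle and at 39.5, 43.5 and 42.2 CPM with carmofur. NFKBIA, the inhibitor that NF-kB itself induces, was at 61.2, 67.5 and 62.2 CPM with vehicle and at 80.3, 87.3 and 65.1 CPM with carmofur, where carmofur 3 lay within the vehicle range.

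The cytokine IL11 was at 82.0, 128 and 76.6 CPM with vehicle and at 118, 161 and 108 CPM with carmofur, a log2 fold change of 0.45 (SE 0.18). Many classical members of this list, among them ICAM1, CXCL1, CCL5 and IL1B, had at most a few counts and were not tested. PTGS2, also untested, was at 1.36, 2.08 and 1.56 CPM with vehicle and at 0.154, 0.349 and 0.740 CPM with carmofur. CXCL2, untested too, was at 1.74, 0.892 and 1.75 CPM with vehicle and at 0.309, 0.698 and 0.740 CPM with carmofur. Both were lower without overlap, on at most 9 counts in a library, and no untested member was higher without overlap. The tested member with the smallest p-value was also lower. CCL26, a chemokine that attracts eosinophils, was at 33.9, 28.5 and 31.3 CPM with vehicle and at 17.9, 18.7 and 21.0 CPM with carmofur, a log2 fold change of -0.72 (SE 0.15, unadjusted p 0.000285 by edgeR).

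Mitochondrial mRNAs were higher in 13 of 13 genes, with a median log2 fold change of 0.19. They are cut from shared precursor RNAs, so that the 13 are not separate observations, and MT-ATP8 with MT-ATP6 and MT-ND4L with MT-ND4 overlap on the same strand. Of the 13, 4 had an unadjusted p under 0.05 beside 1.93% of all genes and 2 did not overlap beside 4.01%. MT-ND1 was at 1078, 1058 and 1135 CPM with vehicle and at 1205, 1756 and 1119 CPM with carmofur, with carmofur 2 far above the rest. The share of all counts in mitochondrial mRNAs was 5.76%, 6.10% and 6.41% with vehicle and 6.66%, 7.12% and 6.39% with carmofur. The ribosomal RNAs MT-RNR1 and MT-RNR2 were also highest in carmofur 2, at 7.42% and 11.6% of all counts, and the part of that library's composition in the result was not tested. The list median was 0.09 without carmofur 2, and 12 of 13 genes were then higher.

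Nuclear genes for oxidative phosphorylation showed no such direction, with 19 of 43 higher and 24 lower and a median of -0.01. Cytosolic ribosomal proteins, at a median of -0.03 over 78 genes, were likewise without a consistent direction.

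Targets of SRF and its MRTF coactivators, which respond to actin assembly, were higher in 19 of 21 tested genes with a median of 0.10. Of the 21, 1 was higher and 1 lower at an unadjusted p under 0.05, beside 1.93% and 1.59% of all genes, and 2 were higher and 1 lower without overlap, beside 4.01% and 4.32%. The list's mean level overlapped between groups, with carmofur 3 at -0.03. The median was 0.05 without vehicle 3 and 0.06 without carmofur 2, where 15 of 21 genes were higher. PDLIM7, a LIM-domain protein of actin bundles, was at 32.9, 37.4 and 37.7 CPM with vehicle and at 50.2, 50.8 and 48.1 CPM with carmofur, a log2 fold change of 0.47 (SE 0.13) without overlap. FHL1, a further LIM-domain protein, was lower at 7.72, 5.24 and 8.14 CPM with carmofur against 10.1, 12.5 and 10.3 CPM with vehicle. The contractile genes ACTA2, TAGLN, CNN1 and MYL9 were too low to be tested.

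Integrins and focal adhesion proteins, which tie actin to the matrix, were higher in 25 of 37 genes with a median of 0.08, which was 0.05 without vehicle 3 and 0.06 without carmofur 3. Of these, 5 had an unadjusted p under 0.05 beside 1.93% of all genes and 6 did not overlap beside 4.01%. MCAM was at 126, 143 and 149 CPM with vehicle and at 181, 232 and 181 CPM with carmofur, a log2 fold change of 0.51 (SE 0.12). The adaptor PXN was at 197, 188 and 157 CPM with vehicle and at 242, 223 and 188 CPM with carmofur. The LIM protein ZYX was at 66.1, 69.5 and 73.1 CPM with vehicle and at 99.7, 80.3 and 73.5 CPM with carmofur, and the proteoglycan SDC4 at 67.6, 68.4 and 66.9 CPM with vehicle and at 93.1, 77.5 and 71.5 CPM with carmofur. In the opposite direction, TLN1, which links integrins to actin, was at 225, 245 and 252 CPM with vehicle and at 206, 202 and 221 CPM with carmofur. PXN, ZYX, SDC4 and TLN1 were named after their values were seen.

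Several programs that carmofur could be asked about showed medians near 0 and no consistent direction. The median log2 fold change was 0.00 for 35 genes of sphingolipid metabolism, the pathway of the drug's target, -0.02 for 22 pyrimidine enzymes, -0.03 for 23 p53 targets, 0.02 for 36 genes of DNA replication, 0.01 for 30 genes of mitosis and the spindle and 0.03 for 24 genes of immediate early and ERK output. At an unadjusted p under 0.05 by edgeR, 2 of 24 immediate early and ERK genes and 1 of 35 sphingolipid genes were higher. At the same p, 1 of 22 pyrimidine enzymes was lower, and the other lists named here had no such member. Over all genes 1.93% were higher and 1.59% lower at that p. The quartile ranges of these lists covered 0. Lysosome genes and FOXO targets were among the consistent lists, with small shifts. Lysosome genes were higher in 19 of 31, with a median of 0.08 and 0 at an unadjusted p under 0.05 by edgeR. FOXO targets were lower in 11 of 18, with a median of -0.09, and 1 was higher and 1 lower at that p. In both lists the mean levels overlapped between the groups and the quartile range covered 0.

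Single genes were named where they had a mean of at least 10 CPM, did not overlap and kept their direction with each library left out. Of 8126 tested genes of at least 10 CPM, this held for 294 higher and 345 lower with carmofur. Over all tested genes 4.01% were higher and 4.32% lower without overlap, so these counts are not read as a response. Most of the 12 genes of smallest p-value in each direction are given. Since their groups do not overlap by selection, their values are a description.

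The higher genes beside MCAM and PDLIM7 included further genes of matrix and actin. COL6A1, a chain of collagen VI, was at 184, 188 and 202 CPM with vehicle and at 259.6, 271 and 225 CPM with carmofur, a log2 fold change of 0.40 (SE 0.10). SSH2, a phosphatase that activates the actin-severing protein cofilin, was at 15.7, 12.5 and 15.2 CPM with vehicle and at 21.6, 27.1 and 20.7 CPM with carmofur. MICAL2, an enzyme that oxidizes actin, was at 26.2, 31.5 and 28.8 CPM with vehicle and at 32.9, 53.4 and 41.4 CPM with carmofur. In each of the 3 genes carmofur 2 was the highest library.

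EPHB2, an ephrin receptor, was at 74.2, 72.5 and 80.5 CPM with vehicle and at 101, 118 and 81.1 CPM with carmofur, so that carmofur 3 was barely above vehicle 3. MYO19, a myosin of mitochondria, had the smallest spread of these genes, at 62.4, 61.2 and 59.7 CPM with vehicle and 77.9, 80.6 and 75.2 CPM with carmofur. Further higher genes were the monooxygenase-like MOXD1 (log2 fold change 0.38), the spindle protein HAUS2 (0.40), CABLES1 (0.63) and the ubiquitin-conjugating enzyme UBE2S (0.72).

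Among the lower genes, DHRS3, an enzyme that reduces retinal to retinol, had the largest fold change. It was at 33.5, 41.9 and 52.7 CPM with vehicle and at 15.4, 5.24 and 25.9 CPM with carmofur, a log2 fold change of -1.51 (SE 0.34). The carmofur libraries spanned from 30 counts in carmofur 2 to 105 counts in carmofur 3, and the residual SD was 0.83. DHRS3 had an adjusted p of 0.0314 without carmofur 3 by edgeR, the only gene to pass 0.05 in any of the 6 fits with a library left out.

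TMEM268 was at 14.0, 19.0 and 19.2 CPM with vehicle and at 11.0, 8.73 and 9.87 CPM with carmofur. IDH1, the cytosolic isocitrate dehydrogenase, was at 22.7, 32.1 and 25.5 CPM with vehicle and at 15.3, 19.6 and 18.7 CPM with carmofur. IBTK, an inhibitor of Bruton's tyrosine kinase, was at 126, 135 and 125 CPM with vehicle and at 103, 101 and 106 CPM with carmofur, with a small spread. SNX10, a sorting nexin, was at 67.4, 70.1 and 63.0 CPM with vehicle and at 54.0, 47.3 and 52.3 CPM with carmofur. By selection, these 4 genes had no carmofur library within the vehicle range. The others beside CCL26, PHGDH, EPRS1 and NARS1 were TBC1D8 (log2 fold change -0.78), DCUN1D4 (-0.52) and RAI1 (-0.48).

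Some of these genes lie opposite other transcribed genes, and whether the authors counted reads by strand is not stated. Over the 6 libraries UBE2S had 348 counts and its neighbor RPL28 on the other strand 9833, and TBC1D8 had 653 counts beside 19300 of RPL31. For MCAM (5132 counts, opposite CBL with 2192), MYO19 (2107, opposite ZNHIT3 with 1079) and RAI1 (864, opposite SREBF1 with 808) the neighbor had fewer counts.

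**Figure D5:**
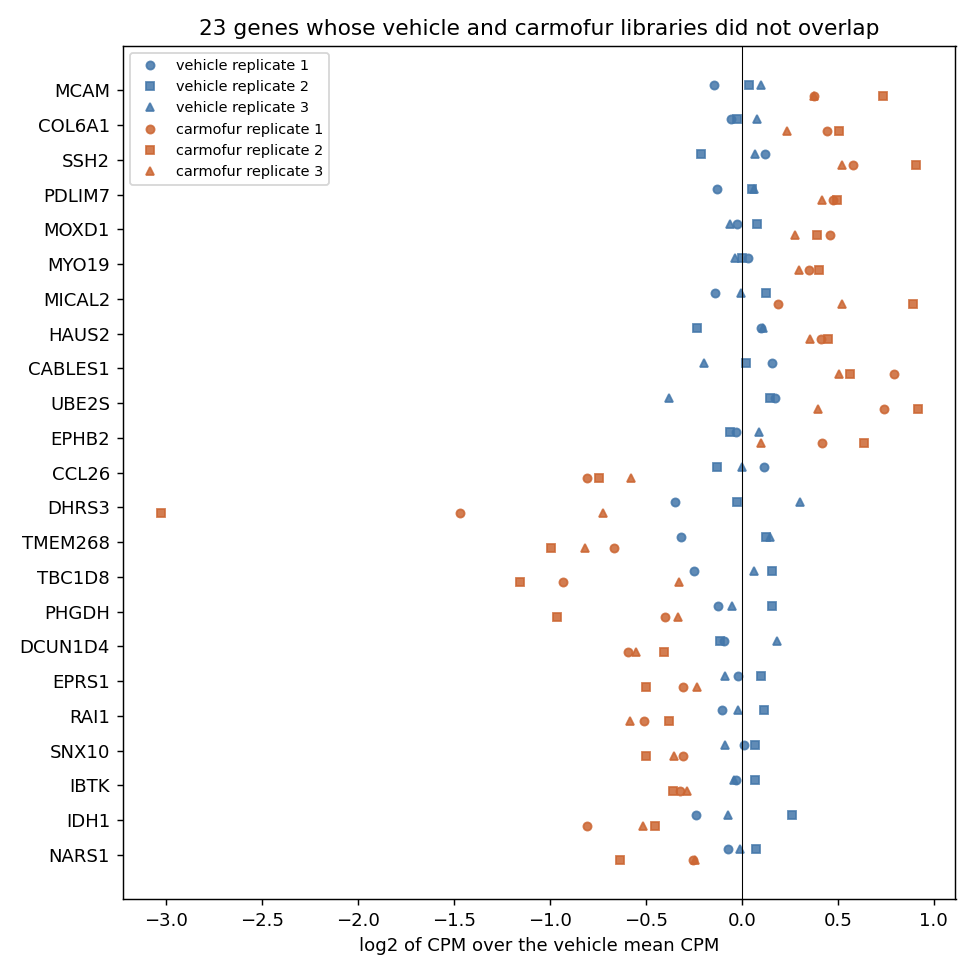
Level of 11 higher and 12 lower genes in each library, as log2 of CPM over the gene's vehicle mean CPM. Blue symbols are vehicle, orange symbols carmofur, and the symbol shape is the replicate number. The genes were selected for groups that do not overlap, and DHRS3 in carmofur 2 lies farthest from the vehicle mean.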

How the data were processed

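Libraries were made by the authors with the QuantSeq 3′ FWD kit, and the authors trimmed and mapped the reads with the BlueBee pipeline. The build is hg38 per the submitters' processing notes. The table deposited by the authors holds raw counts of reads, as whole numbers, for 60107 Ensembl identifiers. The annotation, the use of strand and the treatment of PCR copies are not given in the sources used here. Symbols matched 56104 identifiers, which held 99.85% of the counts, and positions came from GENCODE (GRCh38).

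The 3 carmofur and 3 vehicle libraries of U251P, with 3295045 to 6350873 counts each, were fitted on the deposited counts with edgeR (version 4.0.16) in R (version 4.3.3), using TMM scaling, filterByExpr, the quasi-likelihood test and Benjamini-Hochberg adjustment over 11426 genes. Standard errors were computed from the F statistic. DESeq2 (version 1.42.0) and limma voom (version 3.58.1) were alternatives, together with other scalings and filters, the replicate number as a block, and each library left out. The steps were tested on simulated data. Log2 CPM used a prior count of 2. Intervals are standard deviations or standard errors and no test was run on a list. Lists and promoters were summarized in Python 3.11.15 (pandas 2.3.3), and plots were drawn with matplotlib 3.10.9.

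The comparison, the 36 pathway lists, the 7 marker lists and the rule for named genes were chosen with earlier results of these data known. Genes were named if they were among the 25 most abundant with vehicle, if they had a mean of at least 10 CPM, did not overlap, kept their sign with each library left out and were among the 12 of smallest p in a direction, or if they were among the 12 of largest residual SD at 50 CPM or more. Members of the 3 highest and 3 lowest lists with 8 or more tested genes were named at an unadjusted p under 0.05 (at most 6), or else the 2 of smallest p, and marker genes and ASAH1 were named always. Other genes were named after their values were seen, as members of a list or for the promoter core. The list symbols DDX58 and RARRES3 matched no identifier. Motifs for AP-1 (TGANTCA), TEAD (GGAATG), the sterol element (TCACCCCAC) and the E box (CACGTG) were searched in the same promoter windows, and of these 7 of 20 SRF and MRTF genes held the TEAD letters (35%) beside 14.7% of tested genes. Some genes that met these rules are not reported here.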

Additional observations from a re-analysis of the deposited data

How the results depend on the processing

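Replicates differed by more than counting error, and the standard errors above limit what could be seen. The count of genes at an adjusted p under 0.05 was 0 under RLE and upper-quartile scaling, with at least 10 counts in every library, in DESeq2, in limma voom, and in the main test at an adjusted p under 0.1. It was 19 with no filter on low counts, where the estimate of prior degrees of freedom was infinite (11.3 with the filter), so that each gene's own spread was not used. DDIT4 then had an unadjusted p of 1.35e-18 instead of 0.12. Over the fits that leave out a library the count was 0 to 1, the 1 gene being DHRS3 without carmofur 3. The groups share replicate numbers, and deviations from the group means correlated at 0.21, -0.03 and 0.27 for numbers 1, 2 and 3. The numbers were therefore not taken as pairs, although the libraries of number 3 and those of number 1 were the most alike of all pairs. With the replicate block the count was 1 (DHRS3, adjusted p 0.026), 692 genes had an unadjusted p under 0.05, and the median of the NF-kB list was 0.17 instead of 0.27. Genes without overlap numbered 847 to 947 under other settings against 952. The median of each of the 6 lists described in depth kept its sign in every alternative. For the fits with a library left out this was fixed by selection, since only consistent lists were described in depth. The common coefficient of variation was 0.0944 with the replicate block and 0.122 to 0.126 with a library left out. Of the 25 baseline genes, 14 lie outside the mitochondrial genome. The genes named for groups without overlap had been selected to keep their sign with each library left out. Of 63 genes whose log2 fold changes were refitted, 58 kept their sign throughout. The 5 others changed it over the fits with a library left out: NEAT1 ranged from -0.0009 (without vehicle 2) to 0.98, EPHA2 from -0.12 (without carmofur 1) to 0.63, STC1 from -0.48 to 0.10 (without vehicle 3; 0.05 without carmofur 1), PAPPA from -0.63 to 0.057 (without vehicle 3) and ASAH1 from -0.051 (without carmofur 1; -0.0066 without vehicle 3) to 0.19.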
